A study of Mus musculus with 4 samples.

Results

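The genes described here are 8 components of Notch signalling that act at or near the transcription factor RBP-J, namely Rbpj itself, the receptor genes Notch1, Notch2 and Notch4, the coactivator genes Maml1 and Maml2, the corepressor gene Spen and the receptor protease gene Adam10. They were chosen by gene symbol, and all 8 were found among the 23995 symbols of the deposited expression table. RNA was sequenced from 2 sorted monocyte subsets of mouse blood, Ly6Clo and Ly6Chi monocytes, of control mice (Rbpj+/+ Lyz2 cre/cre, titled WT, with Lyz2-Cre as the genotype label) and of RBP-J-deficient mice (Rbpj fl/fl Lyz2 cre/cre). Both genotypes thus carried Cre at the Lyz2 locus, which is active in myeloid cells, and no treatment is given. The mice were young adults matched for age and sex, and their strain background is not given in the sources used here. The 4 groups hold 1 library each. How many mice contributed to a library is not given in the sources used here. No difference below has a replicate check, and none was tested. A fit of genotype with the subset as a block, which would leave 1 residual degree of freedom, was not made.

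Notch receptors are surface proteins that are bound by ligands on neighbouring cells. Binding exposes the receptor to ADAM10, which removes its outer part, and γ-secretase then releases the intracellular domain. That domain enters the nucleus, binds RBP-J on DNA and recruits a Mastermind-like protein and histone acetyltransferases. Without it, RBP-J can hold corepressors such as SPEN at the same genes. In the mouse, Notch2 is known for its part in the formation of Ly6Clo monocytes.

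Levels are given as FPKM, the fragments of a gene corrected for transcript length and for library size, and can therefore be compared between genes. How the deposited values had been scaled for library size was not checked. Differences are given as the log2 ratio of (FPKM + 1), which understates those of genes with low FPKM. A gene was taken as expressed when its FPKM was at least 1 in at least 1 library, which held for 10240 symbols and for 7 of the 8 members, all but Notch4. The call was a size, a fold of at least 2 either way on (FPKM + 1), or 1 on the log2 scale. The summed FPKM of the libraries ranged from 711555 to 885648, highest in RBP-J-deficient Ly6Clo monocytes, and 8985 to 9394 genes per library had an FPKM of at least 1. Read totals were not used here, so the depth is known only roughly, from the smallest steps of the FPKM values. By these, 1 fragment on 1 kb of transcript gave an FPKM of about 0.055 in control Ly6Clo and 0.075 in RBP-J-deficient Ly6Clo monocytes. It gave about 0.045 in control Ly6Chi and 0.055 in RBP-J-deficient Ly6Chi monocytes, and a larger step goes with fewer fragments. The FPKM of Actb was 27260 and 22795 in the control libraries but 0 in both others, so an FPKM of 0 was not read as absence.

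The labelled subsets carried their markers in control mice, and less clearly so in RBP-J-deficient mice. The summed FPKM of 8 Ly6Chi monocyte markers was 937.4 in control Ly6Clo, 2325 in RBP-J-deficient Ly6Clo, 6576 in control Ly6Chi and 6256 in RBP-J-deficient Ly6Chi monocytes. For 10 Ly6Clo monocyte markers the sum was 3373, 2497, 674.0 and 1110 in the same order. The RBP-J-deficient Ly6Clo library thus held more Ly6Chi marker RNA and less Ly6Clo marker RNA than its control. In it 6 of the 8 Ly6Chi markers were at least 2-fold higher, against 8.97% of all expressed genes. Of the 10 Ly6Clo markers, 9 were at least 2-fold lower in Ly6Chi than in Ly6Clo monocytes of control mice, but 2 in RBP-J-deficient mice, where 1 was higher. That 1 was Nr4a1, with an FPKM of 65.6 in Ly6Clo and 182.5 in Ly6Chi monocytes, against 618.2 and 213.9 in control mice. Of all expressed genes, 5.21% were that much lower between subsets in control mice. In deficient mice 8.41% were lower and 10.6% higher. Cd36 made up 944.7 of the Ly6Clo marker sum of the deficient Ly6Clo library. In Ly6Chi monocytes 4 Ly6Clo markers were at least 2-fold higher in deficient than in control mice, against 2.64% of all expressed genes. T cell and NK cell markers summed to at most 2.27 in any library. B cell markers summed to 26.2 to 102.2, most of it from Cd79b, and Pax5 was at 0 in 3 libraries. In deficient against control Ly6Clo monocytes the FPKM of Cd79b was 100.2 against 41.9, whereas that of Cd79a was 1.13 against 9.02, of Cd22 0.563 against 12.9 and of Ms4a1 0.0603 against 3.27. Neutrophil markers summed to 5.65 in control Ly6Clo and to 229.8 in control Ly6Chi monocytes, the lowest and the highest library. In the latter Mmp8 made up 194.8 and Retnlg 35.1 of the sum, with Camp, Ltf and Ngp listed at 0. In RBP-J-deficient Ly6Chi monocytes, by contrast, the FPKM of Camp was 5.52 and that of Ngp 4.87. Platelet markers summed to 124.1 to 350.3. In bulk RNA, fewer cells of a type and less RNA per cell cannot be told apart. The part of other cells in the differences below was not tested.

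Rbpj, the targeted gene, was lower in RBP-J-deficient monocytes of both subsets. It encodes the DNA-binding factor on which the pathway ends, and lies on the plus strand of chromosome 5, from 53555779 to 53657445 in the deposited mm10 coordinates. Its FPKM was 8.30 in control Ly6Clo and 2.43 in RBP-J-deficient Ly6Clo monocytes, and 14.4 in control Ly6Chi and 2.85 in RBP-J-deficient Ly6Chi monocytes. Both control libraries were above both RBP-J-deficient libraries. How many of all expressed genes separate in this way, by genotype or by subset, was not counted, here or below. The FPKM remaining was 0.292 of the control level in Ly6Clo and 0.198 of it in Ly6Chi monocytes, with log2 ratios of -1.44 and -2.0. Among the 10240 expressed genes, 469 had a lower log2 ratio in Ly6Clo and 29 in Ly6Chi monocytes. Rbpj was higher in control Ly6Chi than in control Ly6Clo monocytes, by 0.73 on the log2 scale, and the deficient libraries differed by 0.17.

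The level that remained in the deficient libraries, an FPKM of 2 to 3, is a value for the whole gene. It can count fragments from exons that the floxed allele leaves in place, and the sources used here do not say which exons are removed. GENCODE annotates the processed copies Rbpj-ps1 on chromosome 4 and Rbpj-ps3 on chromosome 6, which are not listed in the table, and reads shared with them could add to the value. How much either added was not tested.

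RBP-J binds DNA at sequences built on the core TGGGAA, so the 250 bases before the RefSeq start sites of the members (GRCm38.p6) were searched for TGGGAA and its complement TTCCCA on the other strand. Of the 10 windows of the 8 members, 4 held a match, 2 of them overlapping windows of Rbpj, against 21.6% of all 32851 RefSeq promoter windows. The remaining matches were in the Spen window and in a Maml2 window (chr9:13662210-13662459, plus strand), there at -145 to -140 from its start site. The windows of Notch1, Notch2, Notch4, Maml1 and Adam10 held none. The longer GTGGGAA, which contains the core, was in 1 member window, that of Spen, and in 5.42% of all windows. CGTGGGAA and TGTGGGAA, which contain both, were in 0 member windows and in 0.636% and 1.46% of all windows. The following windows are shown because Rbpj and Spen hold the core, while Notch2 and Adam10, the members with the largest excess in RBP-J-deficient Ly6Clo monocytes, do not. Capitals mark TGGGAA or TTCCCA, and each is written 5′ to 3′ on the strand of the gene, as chr5:53590096-53590345 (plus strand) for Rbpj, chr4:141538598-141538847 (minus strand) for Spen, chr3:98013288-98013537 (plus strand) for Notch2 and chr9:70678732-70678981 (plus strand) for Adam10.
Rbpj: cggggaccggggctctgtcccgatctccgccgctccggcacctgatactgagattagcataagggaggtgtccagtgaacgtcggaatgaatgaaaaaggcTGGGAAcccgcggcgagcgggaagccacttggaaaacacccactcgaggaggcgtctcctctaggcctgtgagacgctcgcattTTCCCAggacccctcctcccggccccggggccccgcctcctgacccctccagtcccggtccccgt
Spen: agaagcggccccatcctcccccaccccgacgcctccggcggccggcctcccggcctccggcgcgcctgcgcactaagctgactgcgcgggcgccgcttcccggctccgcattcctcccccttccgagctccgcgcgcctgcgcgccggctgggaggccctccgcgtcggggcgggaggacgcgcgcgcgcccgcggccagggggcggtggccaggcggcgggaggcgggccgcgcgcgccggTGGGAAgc
Notch2: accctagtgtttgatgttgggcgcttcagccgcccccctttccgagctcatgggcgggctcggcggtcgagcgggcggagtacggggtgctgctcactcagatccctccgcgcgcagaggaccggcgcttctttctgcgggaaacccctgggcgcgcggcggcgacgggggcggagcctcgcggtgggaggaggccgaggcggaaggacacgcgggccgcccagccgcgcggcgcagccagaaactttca
Adam10: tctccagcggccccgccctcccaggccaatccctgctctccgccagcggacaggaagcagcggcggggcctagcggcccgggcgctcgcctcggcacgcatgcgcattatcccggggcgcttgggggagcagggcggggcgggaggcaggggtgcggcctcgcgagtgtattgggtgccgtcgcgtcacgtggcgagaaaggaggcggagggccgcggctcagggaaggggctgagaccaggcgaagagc
In the Rbpj window the matches lay at -149 to -144 on the plus strand and at -65 to -60 on the minus strand, counted from the start site, and in the Spen window the match lay at -8 to -3. A match describes these letters and is not a binding site, and a window without one says nothing of binding elsewhere. The Rbpj window lies inside the deposited span of the gene, and starts other than those of RefSeq were not searched. At the start sites of the windows shown, 0 GENCODE transcripts begin for Rbpj and for Adam10, and 1 for Spen and for Notch2. The windows were GC-rich, with 65.2% GC for Rbpj, 82.4% for Spen, 72% for Notch2 and 74% for Adam10.

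Notch2 was the dominant receptor gene in every library and was higher in RBP-J-deficient monocytes of both subsets. It encodes a single-pass receptor and lies on the plus strand of chromosome 3, from 98013538 to 98150367. The FPKM of Notch2 was 125.7 in control Ly6Clo, 732.3 in RBP-J-deficient Ly6Clo, 70.3 in control Ly6Chi and 161.0 in RBP-J-deficient Ly6Chi monocytes. Both deficient libraries were above both control libraries, and the share of all expressed genes that separate by genotype was not counted. Within each genotype the Ly6Clo library was the higher one. The FPKM ratio of deficient to control was 5.83 in Ly6Clo monocytes, a log2 ratio of 2.53, and 2.29 in Ly6Chi monocytes, a log2 ratio of 1.18. Only 26 of the 10240 expressed genes had a higher log2 ratio in Ly6Clo monocytes, and 149 in Ly6Chi monocytes. By its FPKM, Notch2 ranked 882 of the 23995 symbols in control and 209 in deficient Ly6Clo monocytes, and 1443 and 753 in Ly6Chi monocytes.

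The Notch2 excess was smaller in Ly6Chi monocytes, with a difference between the log2 ratios of -1.35 that was not tested. The subset difference was accordingly wider in the deficient mice. Ly6Chi over Ly6Clo, Notch2 had a log2 ratio of -0.83 in control and of -2.18 in RBP-J-deficient monocytes. Its fold on (FPKM + 1) in Ly6Clo monocytes was 5.79, just above 5.7, the size part of the threshold used for this series, which 0.273% of expressed genes reached in Ly6Clo and 0.156% in Ly6Chi monocytes. Notch2 was the only member past it, and in Ly6Clo monocytes only. With TPM, where each library is rescaled to the same sum, its log2 ratio was 2.23, below that size, and it was also just below it with a pseudocount of 5 or with ratios centred on the median of expressed genes.

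Notch1 was low and was higher in Ly6Chi monocytes of either genotype. This receptor gene, best known for its requirement in T cell development, lies on the minus strand of chromosome 2, from 26457902 to 26503822. FPKM was 0.380 in control Ly6Clo and 0.562 in RBP-J-deficient Ly6Clo monocytes, and 2.67 in control Ly6Chi and 2.13 in RBP-J-deficient Ly6Chi monocytes. Roughly, these correspond to 65.5, 71.1, 563.4 and 366.8 fragments. The subsets did not overlap, whereas the genotypes did, and the share of all expressed genes that separate by subset was not counted. Ly6Chi over Ly6Clo, the log2 ratio of Notch1 was 1.41 in control and 1.0 in deficient monocytes, the latter a fold of 2.0 that only just met the size used here. The genotype log2 ratios were 0.18 in Ly6Clo and -0.23 in Ly6Chi monocytes, both inside 2-fold.

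Notch4, an endothelial receptor gene on the plus strand of chromosome 17, from 34564295 to 34588543, was near 0 throughout. Its FPKM was 0.0544, 0.0645, 0.0764 and 0.00822 in control Ly6Clo, RBP-J-deficient Ly6Clo, control Ly6Chi and RBP-J-deficient Ly6Chi monocytes. As a rough guide from the smallest steps of the FPKM values, these correspond to 6.52, 5.66, 11.2 and 0.985 fragments. All 6 pairs of libraries marked it as too low to test, and no difference was read from it. Notch3, a receptor gene that is no member, is listed at 0 in all 4 libraries.

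Nearly all of the FPKM listed for receptor genes was that of Notch2. Summed over the 4 receptor genes, with Notch3 entering as 0, Notch2 made up 99.7% in control Ly6Clo, 99.9% in RBP-J-deficient Ly6Clo, 96.2% in control Ly6Chi and 98.7% in RBP-J-deficient Ly6Chi monocytes. The FPKM of Notch2 exceeded that of Notch1 331.2-fold, 1303-fold, 26.3-fold and 75.7-fold in the same order. The ratio was lowest in control Ly6Chi monocytes, where Notch1 was highest and Notch2 lowest.

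**Figure D1:**
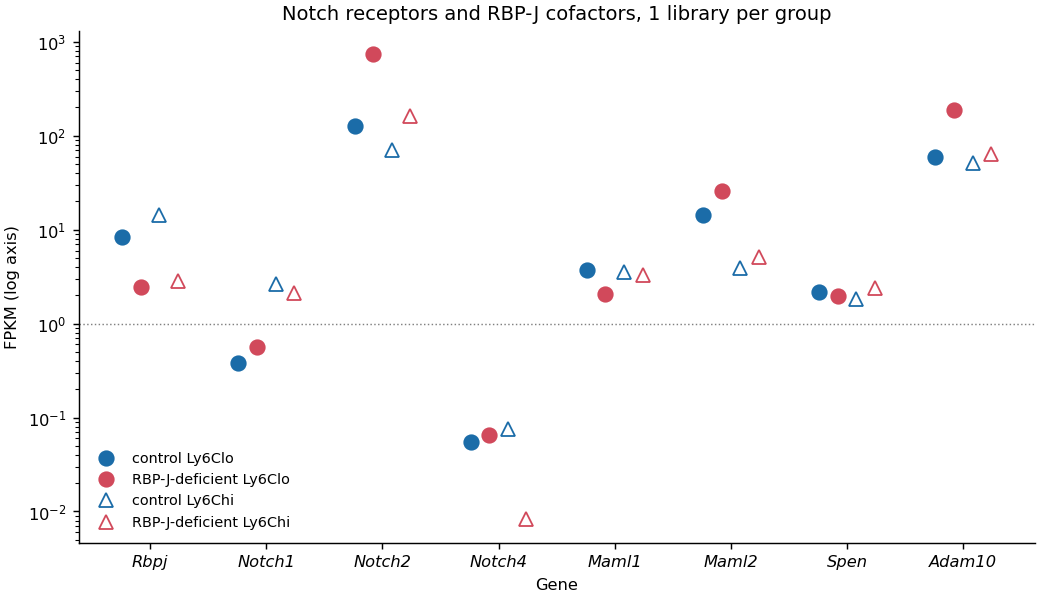
FPKM of the 8 genes on a log axis, 1 point per library: filled circles are Ly6Clo and open triangles Ly6Chi monocytes, blue is control and red RBP-J-deficient, and the dotted line is an FPKM of 1. Notch2 spans 70.3 to 732.3, Notch4 stays below 0.1, and Rbpj is lower in both red points than in both blue points.

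Adam10 followed Notch2 in Ly6Clo monocytes but differed little by genotype in Ly6Chi monocytes. It encodes the metalloprotease that makes the ligand-induced cut in Notch receptors, and lies on the plus strand of chromosome 9, from 70679001 to 70780229. The FPKM of Adam10 was 59.1 in control Ly6Clo, 186.5 in RBP-J-deficient Ly6Clo, 51.4 in control Ly6Chi and 63.8 in RBP-J-deficient Ly6Chi monocytes. The deficient Ly6Clo library stood above the other 3, which lay within 51.4 to 63.8. In Ly6Clo monocytes the FPKM ratio of deficient to control was 3.15, with a log2 ratio of 1.64 that 207 of the 10240 expressed genes exceeded. In Ly6Chi monocytes the FPKM ratio was 1.24 and the log2 ratio 0.31. The difference between the genotype log2 ratios, -1.33, was close to that of Notch2 and was not tested either. With the GC trend described below subtracted, the differences were less close. The Ly6Clo and Ly6Chi ratios were then 1.24 and 0.14 for Adam10 and 2.76 and 1.28 for Notch2.

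The coactivator genes Maml1 and Maml2 differed from each other in level and in pattern. Mastermind-like proteins bind the surface that RBP-J and the Notch intracellular domain form together. Maml2 lies on the plus strand of chromosome 9, from 13619989 to 13709533, and its FPKM was 14.2 in control Ly6Clo, 26.1 in RBP-J-deficient Ly6Clo, 3.90 in control Ly6Chi and 5.06 in RBP-J-deficient Ly6Chi monocytes. Both Ly6Clo libraries were above both Ly6Chi libraries, and the share of all expressed genes that separate by subset was not counted. Its FPKM in Ly6Clo monocytes was 3.65 times that in Ly6Chi monocytes of control mice and 5.15 times in RBP-J-deficient mice, with log2 ratios of Ly6Chi over Ly6Clo of -1.64 and -2.16. The genotype log2 ratios of Maml2, 0.83 in Ly6Clo and 0.31 in Ly6Chi monocytes, had the sign of those of Notch2 and Adam10 but stayed inside 2-fold.

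Maml1, on the minus strand of chromosome 11 from 50255635 to 50292336, stayed within 2-fold in all 4 comparisons. Its FPKM was 3.69 in control Ly6Clo, 2.09 in RBP-J-deficient Ly6Clo, 3.55 in control Ly6Chi and 3.29 in RBP-J-deficient Ly6Chi monocytes. The deficient Ly6Clo library was the lowest, with a genotype log2 ratio of -0.60 there and of -0.09 in Ly6Chi monocytes. Maml2 was thus the higher Mastermind-like gene by FPKM in every library, and the FPKM of Maml3, the remaining gene of that family, was 0.745 to 1.77.

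Spen was the most even of the 8 genes. Its protein, also called MINT or SHARP in the literature, links RBP-J to histone deacetylase complexes. Spen lies on the minus strand of chromosome 4, from 141444673 to 141538597. Its FPKM was 2.16 in control Ly6Clo, 1.99 in RBP-J-deficient Ly6Clo, 1.84 in control Ly6Chi and 2.40 in RBP-J-deficient Ly6Chi monocytes. The highest was 1.30 times the lowest, against 10.4 times for Notch2, 7.04 for Notch1, 6.68 for Maml2, 5.94 for Rbpj, 3.63 for Adam10 and 1.76 for Maml1. The genotype log2 ratios of Spen were -0.08 in Ly6Clo and 0.26 in Ly6Chi monocytes.

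Ordered by mean FPKM over the 4 libraries, the genes ran from Notch2 (272.3) and Adam10 (90.2) through Maml2 (12.3), Rbpj (7.0), Maml1 (3.16), Spen (2.1) and Notch1 (1.43) to Notch4 (0.0509). With 1 library per group there is no spread against which neighbours in this order could be set. The nuclear components among the members, Rbpj, Maml1, Maml2 and Spen, were thus all far below Notch2 and Adam10 in FPKM. Among the other pathway genes described below, the corepressor gene Sap30 had a mean FPKM of 138.6, above that of Adam10.

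Counted over the 7 expressed members, 2 were at least 2-fold higher in RBP-J-deficient Ly6Clo monocytes, Notch2 and Adam10, and 1 was at least 2-fold lower, Rbpj. Of all expressed genes, 8.97% were that much higher and 11.1% that much lower, or 5.24% and 17.7% with TPM. Under that rescaling the same 3 members were past 2-fold, with log2 ratios of 2.23 for Notch2, 1.34 for Adam10 and -1.75 for Rbpj. In Ly6Chi monocytes 1 member was higher, Notch2, and 1 lower, Rbpj, against 2.64% and 4.56% of expressed genes. The members' median log2 ratio was 0.18 in Ly6Clo and 0.26 in Ly6Chi monocytes, beside 0.02 and 0.0041 over all expressed genes. The lower call in each subset is the targeted gene itself.

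Between subsets, 1 member was at least 2-fold higher in control Ly6Chi than in control Ly6Clo monocytes, Notch1, and 1 was lower, Maml2, against 7.75% and 5.21% of expressed genes. In RBP-J-deficient monocytes Notch1 was again higher, against 10.6% of expressed genes, and 3 members were lower, Notch2, Maml2 and Adam10, against 8.41% (15.4% and 6.30% with TPM). The genotype and the subset comparisons share libraries. In particular, the high Notch2 and Adam10 of the RBP-J-deficient Ly6Clo library enter both its genotype and its subset difference.

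**Figure D2:**
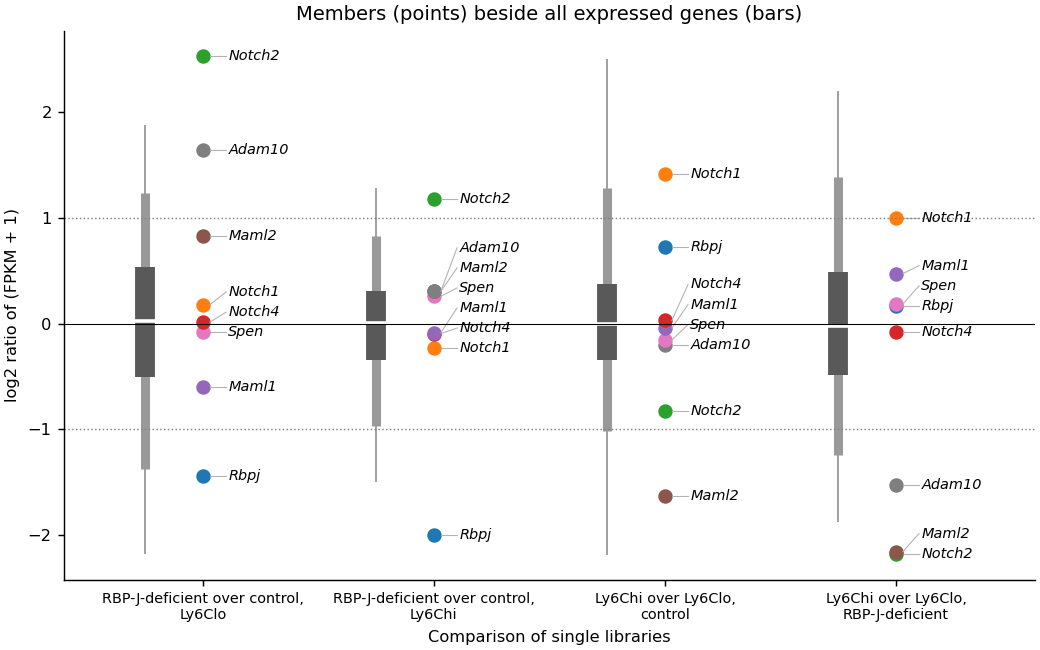
The log2 ratio of (FPKM + 1) of each member (points) in 4 comparisons of single libraries, beside all 10240 expressed genes (bars: white line, median; thick, middle 50%; medium, 5th to 95th percentile; thin, 1st to 99th percentile), with dotted lines at 2-fold. Notch2 in Ly6Clo (2.53) and Rbpj in Ly6Chi monocytes (-2.0) lie outside the thin bars of their comparisons.

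The base composition of transcripts moved with the genotype ratio. Over 6086 genes whose mean FPKM was 5 or more, GC-poor transcripts had higher and GC-rich transcripts lower log2 ratios in the deficient libraries, with a Spearman correlation across genes of -0.37 in Ly6Clo and -0.29 in Ly6Chi monocytes. Genes are not independent replicates, and these genes share libraries. Among the members, the longest GENCODE transcript of Adam10 was 42.1% GC and that of Rbpj 43.7%, while those of Notch2 and Spen were 53.6% and 57.6%. With the trend subtracted, the Ly6Clo genotype log2 ratio was 2.76 for Notch2, 1.24 for Adam10 and -1.80 for Rbpj, each still past 2-fold. In Ly6Chi monocytes it was 1.28 for Notch2 and -2.15 for Rbpj. The trend thus ran against the differences of Notch2 and Rbpj and along with that of Adam10. The subset ratio of Notch1 in RBP-J-deficient monocytes was 0.63 after the same subtraction, inside 2-fold.

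**Figure D3:**
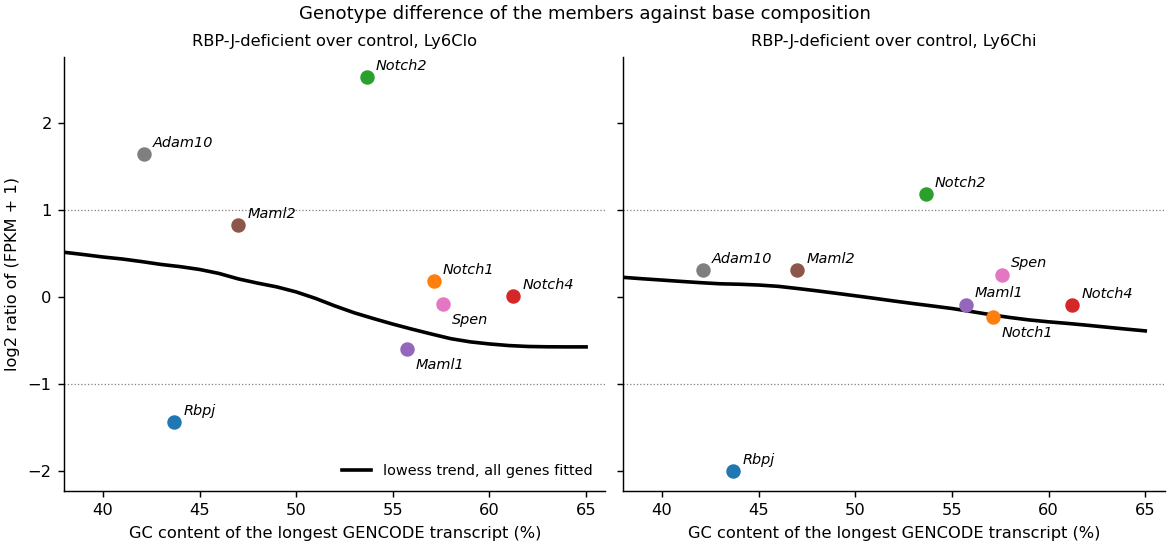
Genotype log2 ratio of (FPKM + 1) of the members against the GC content of their longest transcript in Ly6Clo (left) and Ly6Chi monocytes (right), with the lowess trend over 6086 genes as a black line and dotted lines at 2-fold. Notch2, at 53.6% GC, lies above a falling trend in both panels, and Rbpj, at 43.7% GC, lies below it.

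Around these 8 genes, 67 other genes of the pathway were listed by role, all were found and 53 were expressed. In Ly6Clo monocytes 3 of the 53 were at least 2-fold higher in RBP-J-deficient mice (5.66%) and 9 were lower (17.0%), with a median log2 ratio of -0.19, beside 8.97% and 11.1% of all expressed genes. With TPM, 1 was higher and 14 were lower, beside 5.24% and 17.7% of all expressed genes. After subtraction of the GC trend 3 were higher and 6 lower. The share of all expressed genes past 2-fold was not computed after that subtraction, here or below. Before either step, calls past 2-fold were more often lower than higher over all expressed genes too, but the median log2 ratio there was 0.02. In Ly6Chi monocytes 4 were higher (7.55%) and 2 lower (3.77%), with a median of -0.02, beside 2.64% and 4.56% of all expressed genes. After subtraction of the GC trend 0 were lower there.

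Of the 5 ligand genes, Jag1 alone reached an FPKM of 1. The FPKM of Jag1, which encodes a ligand of the Jagged type, was 5.64 in control Ly6Clo, 20.7 in RBP-J-deficient Ly6Clo, 0.555 in control Ly6Chi and 1.07 in RBP-J-deficient Ly6Chi monocytes. It had genotype log2 ratios of 1.70 and 0.41 and was, like Notch2 and Adam10, highest in RBP-J-deficient Ly6Clo monocytes. Dll1, Dll3, Dll4 and Jag2 are listed at 0, which was not read as absence. Among the ubiquitin ligases that act on ligands, Mib2 had a log2 ratio of -1.48 in Ly6Clo monocytes (-0.93 after GC subtraction) and of -0.78 in Ly6Chi monocytes, while those of Mib1 were 0.83 and 0.50. Neurl3 had the highest mean FPKM of that group, 56.7, and stayed within 51.7 to 61.5.

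Genes of γ-secretase, which cuts the receptor after ADAM10, differed in direction. In Ly6Clo monocytes the FPKM of Ncstn, its substrate-binding subunit, was 30.9 in deficient against 86.4 in control mice, a log2 ratio of -1.46. In the same libraries Psenen, a small subunit, was at 825.4 against 423.3, a log2 ratio of 0.96 (1.20 after GC subtraction). In Ly6Chi monocytes the log2 ratios of Ncstn and Psenen were -0.35 and 0.34. Furin, which cleaves the receptor precursor before it reaches the surface, was at an FPKM of 11.6 in deficient against 11.5 in control Ly6Clo monocytes but at 50.5 against 15.5 in Ly6Chi monocytes, a log2 ratio of 1.64.

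Of the 6 TspanC8 tetraspanin genes, whose proteins carry ADAM10 to the surface, Tspan14 was lower where Adam10 was higher. Its FPKM was 27.7 in control Ly6Clo, 4.56 in RBP-J-deficient Ly6Clo, 33.3 in control Ly6Chi and 17.7 in RBP-J-deficient Ly6Chi monocytes. Its genotype log2 ratios were -2.37 and -0.88. Tspan33 was at 0.255 and 0 in the Ly6Clo libraries and at 0.773 and 2.93 in the Ly6Chi libraries. Tspan17 had log2 ratios of -0.31 in Ly6Clo and -0.74 in Ly6Chi monocytes.

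Of the 3 Fringe genes, whose enzymes extend sugars on Notch receptors, Lfng and Mfng were at least 2-fold lower in deficient Ly6Clo monocytes and Lfng in deficient Ly6Chi monocytes. Lfng had genotype log2 ratios of -1.31 in Ly6Clo and -1.16 in Ly6Chi monocytes, Mfng of -1.34 and -0.84, and Rfng of -0.94 and -0.18. After subtraction of the GC trend all 3 were inside 2-fold in both subsets, and Rfng had a log2 ratio of 0.085 in Ly6Chi monocytes. Poglut1, a glucosyltransferase with the highest mean FPKM of the list, had log2 ratios of 0.29 and -0.23.

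Of the 8 coactivator partners of RBP-J, 0 were at least 2-fold higher and 1 lower in deficient Ly6Clo monocytes. In deficient Ly6Chi monocytes 1 was higher and 1 lower. Of all expressed genes, 8.97% were that much higher and 11.1% lower in Ly6Clo, and 2.64% and 4.56% in Ly6Chi monocytes. The acetyltransferase gene Kat2a had a log2 ratio of -1.13 in both subsets, which was -0.69 in Ly6Clo and -0.92 in Ly6Chi monocytes after GC subtraction. In contrast, its paralog Kat2b had 0.34 in Ly6Clo and 1.15 in Ly6Chi monocytes, and the most abundant genes Snw1 and Ccnc stayed within 2-fold. Of the 18 expressed corepressor genes, Spen included, Cir1 had log2 ratios of 1.16 and 0.99 and Tle1 of 0.29 and 1.02. The Ly6Clo ratio of Cir1 was inside 2-fold after GC subtraction (0.80) and with TPM (0.87). Rita1, whose product exports RBP-J from the nucleus, was at an FPKM of 0.373 in deficient against 5.54 in control Ly6Clo monocytes, a log2 ratio of -2.25, and at 4.64 against 3.34 in Ly6Chi monocytes, a log2 ratio of 0.38. Sap30 and Hdac1, the most abundant of the list, had log2 ratios of -0.07 and -0.06 in Ly6Clo monocytes.

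Among regulators of receptor turnover, Numb, an inhibitor of Notch at the membrane, had log2 ratios of -1.17 in Ly6Clo and -0.49 in Ly6Chi monocytes. Fbxw7, which marks the intracellular domain for degradation, had 1.10 and 0.84, the former inside 2-fold after GC subtraction (0.87) and with TPM (0.86). Itch, the ubiquitin ligase with the highest mean FPKM of that list, had -0.49 and -0.10. Rbpjl, the paralog of Rbpj, is listed at 0 in all 4 libraries.

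**Figure D4:**
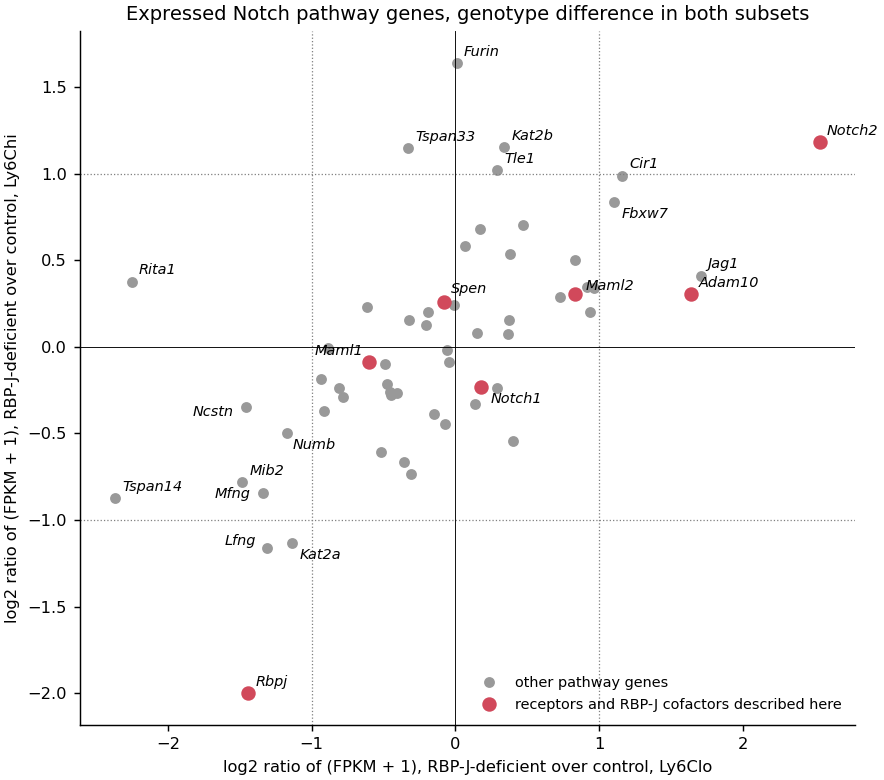
Genotype log2 ratio of (FPKM + 1) in Ly6Clo (x axis) against Ly6Chi monocytes (y axis) for expressed genes of the Notch pathway, with the members in red, other genes in grey, and dotted lines at 2-fold. Notch2 lies past 2-fold higher and Rbpj past 2-fold lower on both axes, while Adam10 and Jag1 lie past it on the x axis only.

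Between the subsets of control mice, 1 of the 53 other genes was at least 2-fold higher in Ly6Chi monocytes (1.89%) and 2 were lower (3.77%), among them Jag1 with a log2 ratio of -2.09. The shares over all expressed genes were 7.75% and 5.21%. In RBP-J-deficient mice 10 were higher in Ly6Chi monocytes (18.9%) and 1 was lower (1.89%), again Jag1, with -3.39, beside 10.6% and 8.41% of all expressed genes. With TPM 15 were higher, beside 15.4% of all expressed genes. After GC subtraction, for which no such share was computed, 8 were higher and 2 lower.

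For each member, the 3 genes with the most similar pattern over the 4 libraries were sought among 7207 expressed genes, by the Euclidean distance between log2(FPKM + 1) values centred on their own mean. The distance is in log2 units, and with only 4 libraries many genes can lie close. Closest to Notch2 were Ltc4s (0.168), Myef2 (0.241) and Rbm26 (0.325), and closest to Adam10 were Alkbh5 (0.102), Krit1 (0.119) and Rrn3 (0.122). Ltc4s, which encodes leukotriene C4 synthase, had an FPKM of 3.40 in control Ly6Clo, 20.6 in RBP-J-deficient Ly6Clo, 1.33 in control Ly6Chi and 4.23 in RBP-J-deficient Ly6Chi monocytes, the order of levels seen for Notch2. For Rbpj they were Ddi2 (0.149), Crtc2 (0.242) and Selo (0.256), for Notch1 S100a11 (0.0613), Trim30d (0.0789) and Naaa (0.132), and for Maml2 Cd81 (0.174), Rgs1 (0.306) and Cdca8 (0.314). The nearest to the evenly expressed Maml1 were Dclre1b (0.0335), Plekhm3 (0.0452) and Pqlc2 (0.0464), and to Spen Mdm2 (0.0466), Dhps (0.0523) and Commd5 (0.0533). Notch4 is so low that its neighbours, Ahcy (0.0110), Ctsz (0.0259) and Tmx4 (0.0358), share only a flat pattern with it.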

How the data were processed

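RNA of 4 libraries, 1 per genotype and subset, had been sequenced as paired ends on an Illumina-HiSeq2500. The authors deposited FPKM values per gene symbol for the 6 pairs of libraries. The submitters' processing notes name CASAVA 1.8, TopHat2 2.1.0, Cufflinks 2.2.1 and mm10. Strandedness, and filters, are not given in the sources used here. The table also holds the authors' fold changes, test statistics, p-values, q-values and significance marks, which were not used. Members and lists were chosen with earlier results of these data known.

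Each library's FPKM was taken from the pair compared, rows sharing a symbol were summed, and log2 ratios of (FPKM + 1) were computed. The size of 2-fold was chosen here, and folds of 5.7 and 0.2 follow the study's methods. All members were named. Other pathway genes were named where at least 2-fold different between genotypes or among the 2 highest of their list by mean FPKM, and 1 such result is not reported here. GC content was that of the longest GENCODE M21 transcript, found for 94.9% of expressed genes, and the trend was a lowess fit (fraction 0.3, 3 iterations) to genes whose mean FPKM was 5 or more. Rescaling to TPM set each library's sum to 1000000. Deposited starts count from 0 and were raised by 1. Promoter sequences were from RefSeq. The procedures were tested on simulated data. Alternatives covered the pseudocount, expression filter, fold, choice of pair and row, TPM and GC. Scripts ran under Python 3.11.15 with statsmodels 0.14.6, scipy 1.17.1, pandas 2.3.3 and numpy 2.4.6.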

Additional observations from a re-analysis of the deposited data

Results flagged for a closer look

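For 4 members the log2 ratios of a single contrast had opposite signs in the groups compared. With 1 library per group none of these differences was tested, and all of the ratios involved were inside 2-fold.

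The genotype log2 ratio of Notch1 was 0.18 in Ly6Clo and -0.23 in Ly6Chi monocytes, a difference (Ly6Chi minus Ly6Clo) of -0.411. After GC subtraction these were 0.61 and -0.03, still opposite. The genotype log2 ratio of Spen was -0.08 in Ly6Clo and 0.26 in Ly6Chi monocytes, a difference of 0.34. With the GC trend subtracted these ratios of Spen were 0.38 and 0.48, no longer opposite. The subset log2 ratio of Spen, Ly6Chi over Ly6Clo, was 0.19 in RBP-J-deficient and -0.15 in control monocytes, which is the same difference of 0.34 by construction, and with the GC trend subtracted they were -0.20 and -0.28. Maml1 had subset log2 ratios of 0.47 in RBP-J-deficient and -0.04 in control monocytes, a difference (RBP-J-deficient minus control) of 0.515. These were 0.16 and -0.15 with the GC trend subtracted, still opposite. Notch4 had genotype log2 ratios of 0.01 and -0.09 and subset log2 ratios of 0.03 and -0.08, a difference of -0.108 either way, at an FPKM below 0.1 in every library. With the GC trend subtracted its genotype ratios were 0.57 and 0.21 and its subset ratios -0.15 and -0.52, no longer opposite.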

How the results depend on the processing

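The labels carry no replicate numbers, so libraries could not be paired by number, and a fit of genotype with the subset as a block was not made. Of 224 values of the members' 32 log2 ratios under alternatives, 220 kept their side of 2-fold and 4 fell inside it. The 4 were Rbpj in Ly6Clo monocytes with a pseudocount of 5 (-0.84) and the Notch1 subset ratio, in control (0.51) and RBP-J-deficient monocytes (0.36) with a pseudocount of 5, and in the latter after GC subtraction (0.63), the use of which between subsets was chosen after seeing the data. All 4 kept their sign. Of the ratios past 2-fold 0 changed sign, while some near 0 did, such as Spen by genotype in Ly6Clo monocytes after GC subtraction (0.38). A larger pseudocount shrinks ratios of low genes by construction.

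Members counted as lower in Ly6Clo monocytes by genotype were 0 with a pseudocount of 5 and 2 at 1.5-fold. Those higher between subsets were 0 in both genotypes with a pseudocount of 5 and 0 in deficient monocytes after GC subtraction. In control monocytes 2 were higher between subsets at 1.5-fold and 2 were lower. The shares of all expressed genes at these settings were not computed, so these counts have nothing to be read against. At the folds of 5.7 and 0.2, 1 was higher in Ly6Clo monocytes, Notch2, and the other 7 counts were 0. For the other pathway genes, TPM, which shifted ratios by -0.30 in Ly6Clo monocytes and 0.21 between deficient subsets, gave medians of -0.42 (Ly6Clo), -0.12 (Ly6Chi) and 0.33 (subsets, deficient), with 1 higher and 14 lower in Ly6Clo monocytes. All 67 genes had a Ly6Clo median of -0.044. GC subtraction left 0 lower in Ly6Chi monocytes and 2 lower between deficient subsets. Without an expression filter the share of genes higher and lower was 3.83% and 4.73% (genotype, Ly6Clo), 1.13% and 1.95% (genotype, Ly6Chi), 3.31% and 2.22% (subsets, control) and 4.51% and 3.59% (subsets, deficient). TPM, applied to these shares after seeing the data, gave 5.24% higher and 17.7% lower in Ly6Clo and 6.91% lower in Ly6Chi monocytes. When all 4 libraries had to reach an FPKM of 1, 3.02% were lower by genotype in Ly6Chi monocytes. Beyond these constructions the cause was not tested. Depth is known only roughly, which limits Notch4 and Notch1 most.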
